A study of Mus musculus with 6 samples.

Results

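Troponins and tropomyosins are the regulatory proteins of the thin filament. The 9 genes described here were chosen by name: Tnnt2, Tnni3 and Tnnc1, which encode the adult cardiac troponin subunits, Tnnt1 and Tnni1, which encode the slow skeletal forms of troponin T and I, and the tropomyosin genes Tpm1, Tpm2, Tpm3 and Tpm4. All 9 were found among the 54929 rows of the count table, and 8 of them were among the 14807 genes with enough reads to be tested, Tnni1 being the exception. The data are mRNA sequencing of the left ventricle of wild-type (WT) C57BL/6 mice that had all undergone transverse aortic constriction (TAC), in which the aorta is tied narrower so that the ventricle pumps against a raised pressure. From day 14 after surgery 1 group received an anti-IgG control antibody and the other an anti-PD-1 antibody, which blocks a receptor that restrains T cells, each at 10 mg/kg into the peritoneum every 3 days. Both groups have 3 libraries with a time label of 5 weeks. No unoperated mice were among the samples, so every value below is from a pressure-overloaded ventricle. The labels do not say whether the libraries of a group came from separate animals, so the p-values reflect the spread of these libraries, which may be technical.

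In striated muscle tropomyosin lies along the actin filament and covers the sites that myosin binds. Calcium binding to troponin C releases the hold of troponin I on actin, and troponin T passes this change to tropomyosin, which moves and lets contraction begin. In the mouse ventricle Tnni1 is the main troponin I gene before birth and is replaced by Tnni3 afterwards. Tpm1 supplies most of the tropomyosin of the adult mouse heart, Tpm2 is a form of fetal heart, skeletal and smooth muscle, and Tpm3 and Tpm4 also give short tropomyosins of the cytoskeleton in many cell types.

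Libraries held 18063344 to 21093163 counted reads. Within a group, libraries differed beyond counting error, with a chi-square per degree of freedom of 46.2 to 73.9. Transcripts of the mitochondrial genome took 28.9% to 39.3% of the reads. Cardiomyocyte markers were abundant in all 6 libraries: the 10 genes Myh6, Myl2, Myl3, Ryr2, Mb, Ttn, Atp2a2, Pln, Csrp3 and Myoz2 summed to 25313 to 40611 CPM (reads scaled to a common library size) with anti-PD-1 and 30731 to 38851 with anti-IgG. Skeletal muscle markers were close to 0, with Myh4, Myod1 and Myog at 0 in every library. Of 7 atrial markers Sln was at 0 too. The 7 together summed to 174 to 219 CPM with anti-PD-1 and 155 to 790 CPM with anti-IgG, most of it from Nppa. Nppa is also on the list of fetal and stress genes below, so this sum does not measure atrial tissue alone. Named after their values were seen, Myl7 was at 0 to 0.107 CPM and Bmp10 at 0 to 0.056, while Nr2f2 and Dkk3 ran from 10.7 to 44.1.

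The stretches upstream of the gene start are shown for the 4 genes that passed the test and, for contrast, for Tpm3, which had the opposite sign. They come from RefSeq (GRCm38.p6, the assembly also called mm10) and are written 5′ to 3′ on the gene's strand. Capitals mark matches, on either strand, to the core of the M-CAT element (CATTCC) or to the motif of the family of cardiac zinc finger factors named after it (GATAA). Whole windows of 250 bases are given for Tnnt2 (chr1:135836084-135836333, plus strand, the upstream of its 2 RefSeq starts), Tnnc1 (chr14:31208062-31208311, plus strand) and Tpm3 (chr3:90079271-90079520, plus strand, the downstream of 2 starts). For Tnni3 (chr7:4522529-4522694, minus strand) the 166 bases next to the start are given, and for Tpm1 (chr9:67049252-67049281, minus strand) 30 bases around the match, all of which lie in an annotated exon.
Tnnt2: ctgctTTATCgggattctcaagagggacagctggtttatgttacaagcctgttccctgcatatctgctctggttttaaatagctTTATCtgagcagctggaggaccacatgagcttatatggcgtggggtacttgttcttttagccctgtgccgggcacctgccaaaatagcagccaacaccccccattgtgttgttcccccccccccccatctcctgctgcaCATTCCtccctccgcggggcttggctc
Tnnc1: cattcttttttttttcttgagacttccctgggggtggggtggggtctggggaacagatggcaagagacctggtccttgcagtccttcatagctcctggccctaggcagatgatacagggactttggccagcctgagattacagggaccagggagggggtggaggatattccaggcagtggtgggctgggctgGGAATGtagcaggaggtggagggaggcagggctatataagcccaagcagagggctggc
Tnni3: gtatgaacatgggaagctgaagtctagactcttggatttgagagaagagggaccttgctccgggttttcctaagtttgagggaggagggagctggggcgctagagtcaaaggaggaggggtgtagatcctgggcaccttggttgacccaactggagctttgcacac
Tpm1: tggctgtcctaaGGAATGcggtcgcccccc
Tpm3: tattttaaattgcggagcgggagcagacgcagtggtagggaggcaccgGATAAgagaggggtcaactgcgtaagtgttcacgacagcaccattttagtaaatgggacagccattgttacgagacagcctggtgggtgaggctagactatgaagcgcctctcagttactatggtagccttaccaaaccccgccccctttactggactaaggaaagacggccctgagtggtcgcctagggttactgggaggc
All 9 genes had at least 1 RefSeq window, and Tnnt2, Tnni1 and Tpm3 had 2 each. A CATTCC match was found upstream of 3 of them: at 27 to 22 bases before the start in Tnnt2 and, on the other strand, at 58 to 53 bases in Tnnc1 and at 56 to 51 bases in Tpm1. Of 32851 mouse windows of this length 12.6% hold the motif, which is a share per window and not per gene. GATAA was found in Tnnt2 (2 matches) and in both Tpm3 windows, against 22.6% of all windows. TATAAA was found in Tnnt1 alone, against 12.4% of all windows. Neither a CArG box (1.47% of windows) nor a MEF2 site (0.508%) was found in any of them, which says only that these letters are not there. No 2 matches overlapped.

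The design sets anti-PD-1 against anti-IgG in hearts after the same surgery. All 3 adult cardiac troponin genes and Tpm1 fell with anti-PD-1, by 2.26-fold (Tpm1) to 2.86-fold (Tnnc1), while Tpm3 lay higher without passing the test. Of the 8 tested genes 4 fell (Tnnt2, Tnni3, Tnnc1 and Tpm1), 0 rose and 4 did not pass (quasi-likelihood test of edgeR, adjusted p under 0.05 by Benjamini-Hochberg over all genes tested). Over all tested genes 10.8% fell and 10.3% rose. The median log2 fold change of the 8 genes was -1.20, against -0.03 over all tested genes. The 9 genes together took 0.634%, 1.23% and 1.06% of the reads of nuclear-encoded genes in anti-PD-1 libraries 1 to 3 and 1.90%, 2.74% and 2.49% in anti-IgG libraries 1 to 3. Changes also followed transcript length over the whole table, and with that trend removed, as given below, 0 of the 8 genes passed. The part of that trend in the fall was not tested. In whole-ventricle RNA fewer cardiomyocytes and less of these RNAs per cardiomyocyte cannot be told apart.

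**Figure D1:**
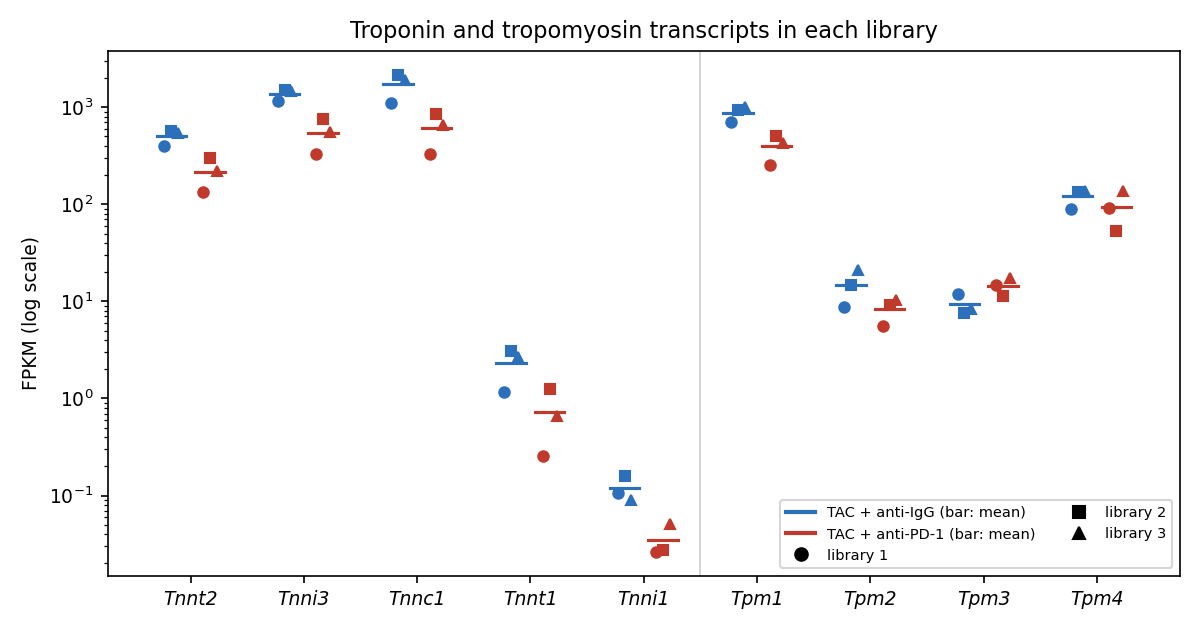
Deposited FPKM (reads scaled by library size and by the authors' gene length, log scale) of the 9 genes in each of the 6 libraries, with the mean of each group as a bar; blue, TAC with anti-IgG; red, TAC with anti-PD-1; marker shapes are libraries 1 to 3. In Tnnt2, Tnni3, Tnnc1, Tnni1 and Tpm1 all 3 anti-PD-1 values lie below all 3 anti-IgG values, while the groups overlap in Tnnt1, Tpm2, Tpm3 and Tpm4.

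Levels below are CPM scaled between libraries by TMM, in the order of libraries 1, 2 and 3. Troponin T of the adult heart, the subunit that ties the complex to tropomyosin, is encoded by Tnnt2 (ENSMUSG00000026414, chromosome 1, 135836354 to 135852260, plus strand, mm10). Tnnt2 stood at 1095, 2489 and 1773 CPM with anti-PD-1 and at 3282, 4738 and 4468 CPM with anti-IgG. The groups did not overlap, and the highest anti-PD-1 library stayed below the lowest anti-IgG library. The mean was 1785 ± 697 against 4163 ± 775 CPM (SD, n = 3 each), which is -1.22 as a log2 fold change with an SE of 0.31 (edgeR adjusted p = 0.0225). Troponin I of the adult heart, the inhibitory subunit, is encoded by Tnni3 (ENSMUSG00000035458, chromosome 7, 4518305 to 4524229, minus strand). Tnni3 had 706, 1686 and 1191 CPM with anti-PD-1 and 2548, 3395 and 3211 CPM with anti-IgG, again without overlap. The mean of 1195 ± 490 CPM with anti-PD-1 compares with 3051 ± 446 CPM (log2 fold change -1.35 with an SE of 0.31, by edgeR adjusted p = 0.0155). Troponin C of heart and slow muscle, the calcium sensor, is encoded by Tnnc1 (ENSMUSG00000091898, chromosome 14, 31208312 to 31211729, plus strand). Tnnc1 had 360, 951 and 713 CPM with anti-PD-1 and 1233, 2447 and 2106 CPM with anti-IgG, a fall in the mean from 1929 ± 626 to 674 ± 297 CPM. This was the steepest fall of the 4 that passed, at -1.52 on the log2 scale (SE 0.37; by edgeR, adjusted p = 0.0198). The whole of Tnnc1 lies inside Nisch on the opposite strand, and since strand use in counting is not stated, reads of the pair may be mixed; Nisch had 3623 to 4684 reads a library, against 7214 to 43743 for Tnnc1. Tnni3 shares 1297 bp with Dnaaf3 on the same strand, which had 21 to 66 reads a library.

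Tpm1, the alpha-tropomyosin of the adult ventricle (ENSMUSG00000032366, chromosome 9, 67022590 to 67049406, minus strand), had 1709, 3552 and 2875 CPM with anti-PD-1 and 4820, 6634 and 6973 CPM with anti-IgG. The groups did not overlap. The mean fell from 6142 ± 1158 to 2712 ± 932 CPM (log2 fold change -1.18 with an SE of 0.31, by edgeR adjusted p = 0.0234). In 4 of the 8 tested genes all anti-PD-1 values lay below all anti-IgG values, and in 0 the reverse; over all tested genes these shares were 20.8% and 20.2%. In all 4 genes that fell, anti-PD-1 library 1 was the lowest of the 6 and anti-PD-1 library 2 the highest of its group, with a spread within the anti-PD-1 group of 2.08-fold in Tpm1 to 2.64-fold in Tnnc1. Anti-IgG library 1 was the lowest of its own group in each.

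None of these calls held in every fit with 1 library left out. Without anti-IgG library 2, 0 of the genes passed (edgeR adjusted p = 0.0761 for Tnnt2, 0.0607 for Tnni3, 0.0780 for Tnnc1 and 0.0725 for Tpm1), and leaving out library 1 of anti-PD-1 also left 0 (edgeR adjusted p = 0.0744, 0.0505, 0.0539 and 0.0780 in the same order). When library 3 of either group was left out Tnni3 alone passed (edgeR adjusted p = 0.0451 without that of anti-IgG and 0.0496 without that of anti-PD-1): Tnnt2 was at 0.0609 and 0.0672, Tnnc1 at 0.0575 and 0.0527, and Tpm1 at 0.0686 and 0.0632. The log2 fold changes kept their sign in each of these fits, from -0.96 to -1.52 in Tnnt2, -1.08 to -1.67 in Tnni3, -1.20 to -1.83 in Tnnc1 and -0.93 to -1.40 in Tpm1.

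The change of a gene moved with the length of its transcript across the whole table, and the 3 cardiac troponin genes have short ones. In the shortest of 10 equal bins of coding and 3' UTR length (188 to 1184 bp) the median log2 fold change was -0.91, with 688 of 1305 genes lower and 7 higher. In the longest (6522 to 123138 bp) it was 0.56, with 4 lower and 507 higher. Tnnc1 (675 bp), Tnni3 (696 bp), Tnnt1 (971 bp) and Tnnt2 (1094 bp) fall in the shortest bin. Tpm2 and Tpm4 (both 2062 bp) lie in the third, where the median was -0.29, Tpm3 (2147 bp) in the fourth, at -0.12, and Tpm1 (2634 bp) in the fifth, at -0.03. When the trend on coding and 3' UTR length within each library was taken out, 0 of the 8 genes fell and 0 rose, and 2.71% and 2.93% of all tested genes did. The log2 fold changes then were -0.63 in Tnnt2, -0.54 in Tnni3 and -0.64 in Tnnc1 (edgeR adjusted p = 0.173, 0.218 and 0.191). With the length used for it, Tpm1 kept most of its change, at -1.09 (SE 0.30, edgeR adjusted p = 0.0538). That length is of its longest listed transcript, which has 735 coding bases, against 852 in Tpm2 and 855 in Tpm3. Its 18 coding transcripts with a 3' UTR run from 860 to 2634 bp, and the gene counts do not show which was present. The correction was not run with a shorter length. When gene length as the authors give it was used instead, Tnnt2 (-1.49, edgeR adjusted p = 0.0194) and Tpm1 (-1.36, 0.0229) passed, while Tnni3 (-0.94, 0.0550) and Tnnc1 (-0.84, 0.0927) did not. That length covers all exons and is 7752 bp in Tnnt2 and 6485 bp in Tpm1, far above their transcripts.

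**Figure D2:**
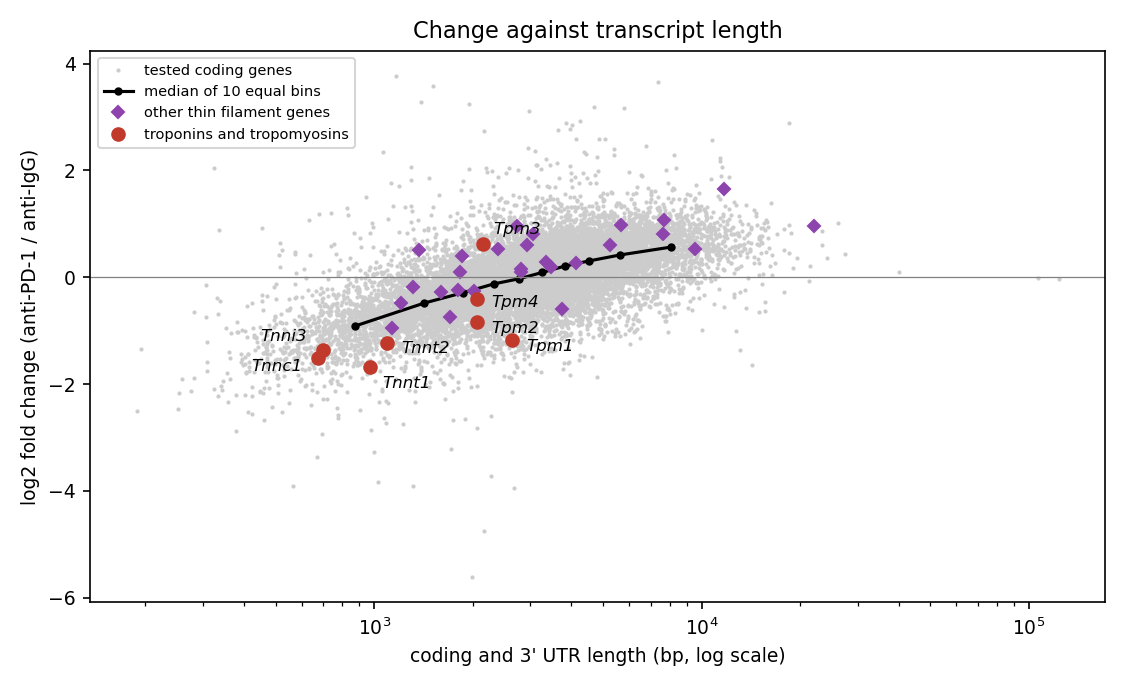
Log2 fold change (anti-PD-1 against anti-IgG) of tested coding genes against their coding and 3' UTR length (log scale), with the median of 10 equal bins as a black line. The 4 tested troponin genes lie under the median of the shortest bin, -0.91. Tnnc1 and Tnni3 lie left of the line, which starts at that bin's middle of 873 bp. Tpm1, placed at the length of its longest listed transcript, is at -1.18 against a bin median of -0.03. Tpm3 at 0.61 lies above its bin median of -0.12. Diamonds are other thin filament genes.

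**Figure D3:**
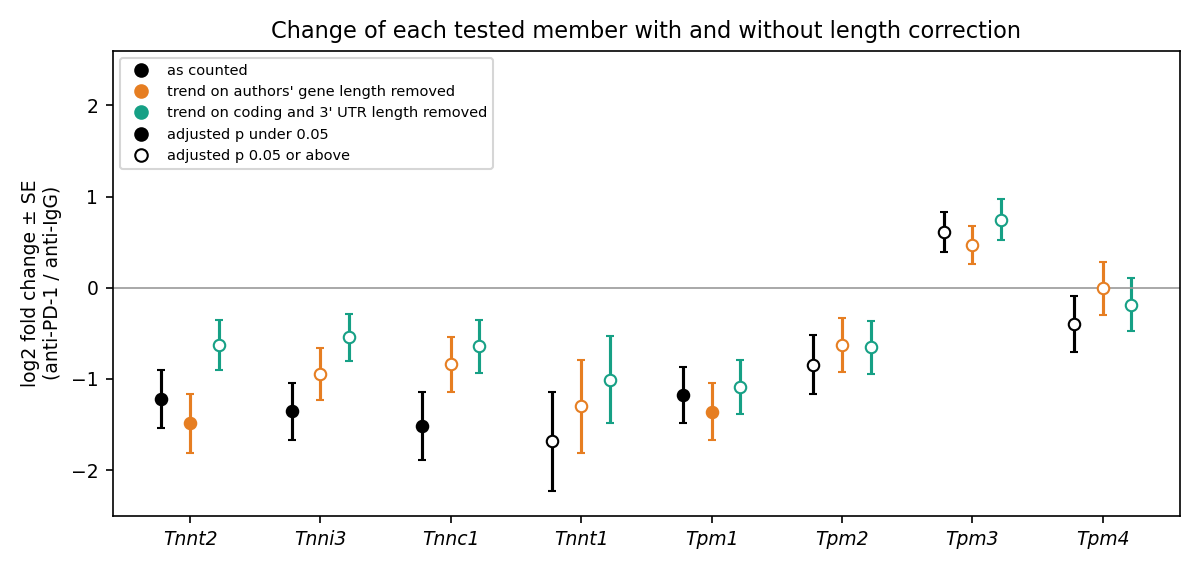
Log2 fold change with its SE for the 8 tested genes, as counted and with each library's length trend removed by either measure of length; filled points passed the adjusted threshold. The points of Tnnt2, Tnni3, Tnnc1, Tnnt1, Tpm2 and Tpm4 move towards 0 when the trend on coding and 3' UTR length is removed. That of Tpm1 hardly moves, that of Tpm3 moves slightly away from 0, and no point stays filled there.

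The slow skeletal troponin genes were far less abundant and lay lower as well. Tnnt1 (ENSMUSG00000064179, chromosome 7, 4504570 to 4516382, minus strand), which lies 1922 bp from Tnni3, was counted 12, 56 and 32 times under anti-PD-1 and 53, 133 and 127 times under anti-IgG. The groups overlapped, since anti-PD-1 library 2 had more reads than anti-IgG library 1. Its log2 fold change of -1.69 (SE 0.55) narrowly missed the threshold (edgeR adjusted p = 0.0522), and it passed when library 1 of anti-IgG (0.0221) or library 2 of anti-PD-1 (0.0223) was left out. Tnni1 (ENSMUSG00000026418, chromosome 1, 135779434 to 135810989, plus strand), 25364 bp from Tnnt2, was counted 2, 2 and 4 times under anti-PD-1 and 8, 11 and 7 times under anti-IgG. These groups did not overlap. Its share of the reads with anti-PD-1 was 0.289 times that with anti-IgG (95% exact interval 0.113 to 0.658 for counting error only; exact 2-sided permutation p = 0.1, the smallest that 3 against 3 libraries allow). The fast skeletal genes, named after their values were seen, were as rare: Tnni2 was counted 5 times in all under anti-PD-1 and 33 times under anti-IgG, and Tnnt3 7 and 22 times. The 12 skeletal muscle markers summed to 0.375 to 0.721 CPM with anti-PD-1 and 1.43 to 3.31 CPM with anti-IgG, so they moved the same way as Tnnt1 and Tnni1; their part in that difference was not tested.

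None of the other 3 tropomyosin genes passed the test. Tpm2, beta-tropomyosin (ENSMUSG00000028464, chromosome 4, 43514711 to 43523765, minus strand), had 16.9, 28.99 and 31.7 CPM with anti-PD-1 and 27.3, 47.0 and 64.8 CPM with anti-IgG. The groups overlapped and its log2 fold change of -0.84 (SE 0.32) did not pass (edgeR adjusted p = 0.0905; 0.0169 without anti-IgG library 1). Tpm4 (ENSMUSG00000031799, chromosome 8, 72134975 to 72153142, plus strand) had 212, 127 and 312 CPM with anti-PD-1 and 211, 322 and 327 CPM with anti-IgG, which is within their spread (log2 fold change -0.40 with an SE of 0.31, by edgeR adjusted p = 0.372). In Tpm4 anti-PD-1 library 2 was the lowest of the 6, unlike in the genes that fell. Tpm3 (ENSMUSG00000027940, chromosome 3, 90072649 to 90100902, plus strand) was the 1 member on the other side of 0: it had 93.7, 74.6 and 110.6 CPM with anti-PD-1 and 77.6, 50.3 and 54.4 CPM with anti-IgG. The groups overlapped through anti-IgG library 1, and the log2 fold change of 0.61 (SE 0.22) did not pass (edgeR adjusted p = 0.0672; 0.0193 when library 1 of anti-IgG, and 0.0467 when library 2 of anti-PD-1, was left out). After removal of the trend on coding and 3' UTR length it was 0.75 (edgeR adjusted p = 0.0725). Tpm3 has a near-identical copy, Tpm3-rs7 on chromosome 14, which shares 15.8% of its 100-base transcript windows and had 75 to 233 reads a library, and Tpm4 shares 7.37% with Gm7809, which had 0 to 14 reads. Tpm4 is also overlapped on the other strand by Gm16091, with 10 to 42 reads a library, and Gm26586, with 0 to 5. Counts of Tpm3 and Tpm4 are uncertain to that extent, while the other 7 genes shared no such window with any other gene's transcripts.

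Smooth muscle also makes tropomyosin, and its 10 markers, 3 of which (Acta2, Lmod1 and Actg2) are on the thin filament list too, summed to 457 to 623 CPM with anti-PD-1 and 528 to 845 CPM with anti-IgG, with 1 of 10 higher (Synpo2) and 1 lower (Smtn) and a median log2 fold change of -0.40. Smtn, a protein of contractile smooth muscle, fell by 1.03 on the log2 scale (edgeR adjusted p = 0.00883), and Acta2, smooth muscle actin, was at -0.74 (0.0821). Synpo2, an actin-binding protein of the Z-disc and smooth muscle, rose by 0.75 on the log2 scale (edgeR adjusted p = 0.0180), a call that ended when library 2 of anti-IgG (0.0900) or library 1 (0.0589) or 3 (0.0521) of anti-PD-1 was left out, and with the trend on coding and 3' UTR length removed (-0.017). Smtn passed in each of these fits (-0.89 with that trend removed, edgeR adjusted p = 0.0196). The part of smooth muscle in the values of Tpm1, Tpm2 and Tpm4 was not tested. The 10 fibroblast markers gave 0 calls by edgeR (1 with an unadjusted p under 0.05) and a median of 0.38. Of 8 endothelial markers 1 rose and 1 fell, with a median of 0.01, and of 7 tested leukocyte markers (8 listed) 1 rose and 2 fell, with a median of -0.60. The shares to set beside these counts are 10.3% higher and 10.8% lower over all tested genes.

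Levels can be compared between genes only per length, and for this the deposited FPKM were used. With anti-IgG the order was Tnnc1 (1721 ± 546 FPKM), Tnni3 (1375 ± 191), Tpm1 (881 ± 162), Tnnt2 (499 ± 89.3), Tpm4 (121 ± 27.0), Tpm2 (14.8 ± 6.00), Tpm3 (9.31 ± 2.33), Tnnt1 (2.32 ± 1.03) and Tnni1 (0.118 ± 0.035; SD, n = 3 each). Tnnc1 and Tnni3 did not differ beyond the spread of their libraries, nor did Tpm2 and Tpm3; each other pair of neighbours was separated in all 3 libraries. With anti-PD-1 Tnnc1 (611 ± 262), Tnni3 (546 ± 216) and Tpm1 (395 ± 131) overlapped, and Tpm3 (14.5 ± 3.02) stood above Tpm2 (8.41 ± 2.56). The order of the 4 most abundant genes, and that of Tpm2 and Tpm3, depends on the length used. Per kilobase of coding and 3' UTR length, in CPM, the order of the 4 was Tnni3 (4384 ± 641), Tnnt2 (3805 ± 708), Tnnc1 (2857 ± 928) and Tpm1 (2332 ± 439) with anti-IgG. On that scale the mean of Tpm3 (28.3 ± 6.85) was above that of Tpm2 (22.5 ± 9.11) with anti-IgG too, with overlapping libraries.

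The ratio of the slow or fetal form to the adult form tells whether isoforms changed relative to each other, and it does not depend on library scaling. Tnni1 was at 0.00809%, 0.00364% and 0.00924% of the Tnni3 level in FPKM with anti-PD-1 and at 0.00922%, 0.0104% and 0.00626% with anti-IgG. The groups overlapped widely (difference in log2 ratio, anti-PD-1 minus anti-IgG, -0.38, SE 0.47; exact 2-sided permutation p = 0.6). Tnnt1 was at 0.192%, 0.424% and 0.305% of Tnnt2 with anti-PD-1 and at 0.291%, 0.552% and 0.501% with anti-IgG (difference in log2 ratio -0.56, SE 0.44, exact permutation p = 0.3). A shift from the adult to the slow skeletal troponins was not detectable in either pair at this number of libraries: both mean ratios were lower with anti-PD-1, and in both the libraries of the groups overlapped. The Tnni1 value rests on 2 to 11 reads a library.

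Among tropomyosins the ratio of Tpm3 to Tpm1 showed the clearest separation. Tpm3 was at 5.84%, 2.24% and 4.10% of the Tpm1 level with anti-PD-1 and at 1.72%, 0.809% and 0.832% with anti-IgG. All 3 anti-PD-1 libraries lay above all 3 anti-IgG libraries, and the ratio was 3.60-fold higher (difference in log2 ratio 1.85, SE 0.54, exact permutation p = 0.1, the smallest possible; 0.4 after Benjamini-Hochberg adjustment over the 8 ratios computed). The difference was 1.53 to 2.22 with any 1 library left out and 1.88 or 1.91 with either length trend removed. By either measure Tpm3 and Tpm1 have similar lengths, 2147 and 2634 bp or 6085 and 6485 bp. Removing a trend could thus move their ratio little, and no shorter Tpm1 transcript was tried. Tpm4 was at 36.6%, 10.5% and 32.0% of Tpm1 with anti-PD-1 and at 12.9%, 14.3% and 13.8% with anti-IgG. Its 3 anti-IgG values were nearly equal, while the anti-PD-1 libraries fell on both sides of them (difference 0.76, SE 0.57, exact permutation p = 0.4). The difference was 1.33 without anti-PD-1 library 2. It was 1.32 when the trend on the authors' gene length was removed (exact permutation p = 0.1). With the trend on coding and 3' UTR length removed it was 0.88 (exact permutation p = 0.4). Tpm2 was at 2.16 ± 0.32% of Tpm1 under anti-PD-1 and at 1.64 ± 0.41% under anti-IgG (difference 0.42, SE 0.24, p = 0.2 by exact permutation).

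**Figure D4:**
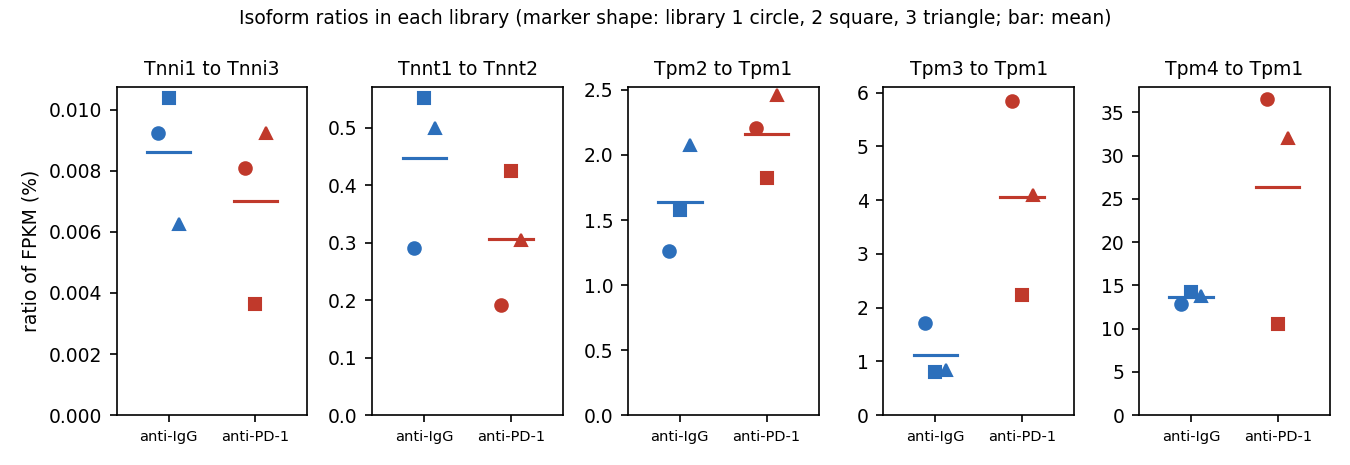
Ratio of deposited FPKM in percent for 5 isoform pairs in each library, on axes that start at 0; bars are group means and marker shapes are libraries 1 to 3. The Tpm3 to Tpm1 ratio runs from 2.24% to 5.84% under anti-PD-1 and from 0.809% to 1.72% under anti-IgG, and the other 4 pairs overlap.

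Expressed as a share of the summed tropomyosin FPKM, Tpm1 made up 86.3%, 85.7% and 85.7% with anti-IgG and 69.2%, 87.3% and 72.2% with anti-PD-1. Anti-PD-1 library 2 lay slightly above the 3 anti-IgG libraries and anti-PD-1 libraries 1 and 3 far below them (exact permutation p = 0.4). Tpm4 made up 11.7 ± 0.56% with anti-IgG and 25.3%, 9.19% and 23.1% with anti-PD-1. The share of Tpm3 was 0.962 ± 0.449% under anti-IgG and, without overlap, 2.99 ± 1.04% under anti-PD-1 (exact permutation p = 0.1). These shares, like the percentages of Tpm1 above, depend on the length used. FPKM scale Tpm1 by 6485 bp and Tpm4 by 2203 bp, against coding and 3' UTR lengths of 2634 and 2062 bp. Per kilobase of the latter, mean CPM of Tpm1 and Tpm4 were 2332 and 139 with anti-IgG and 1030 and 105 with anti-PD-1, a smaller part for Tpm4. Troponin subunits were also set against summed tropomyosin. The log2 ratio was lower with anti-PD-1 for troponin T (difference -0.24, SE 0.16), troponin I (-0.39, SE 0.18) and troponin C (-0.52, SE 0.25), with overlapping libraries in each (exact permutation p = 0.3, 0.2 and 0.2, each 0.4 after adjustment over the 8 ratios). These ratios were not computed with a length trend removed. With the trend on coding and 3' UTR length removed, the log2 fold changes were -0.63 (Tnnt2), -0.54 (Tnni3) and -0.64 (Tnnc1). Those of Tpm1 to Tpm4 were -1.09, -0.65, 0.75 and -0.18, so the direction of these ratios may depend on length.

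The rest of the thin filament was described from a list. Of 30 listed genes for actins, filament-end proteins and their partners 27 were tested: 6 rose, 1 fell and 20 did not pass, where 10.3% of all tested genes rose and 10.8% fell. Their median log2 fold change was 0.29. Actc1, the cardiac actin of the same filament, stood at 6638, 8880 and 7725 CPM with anti-PD-1 and at 9470, 7777 and 9247 CPM with anti-IgG, overlapping (log2 fold change -0.19, SE 0.25, edgeR adjusted p = 0.617). Acta1, the skeletal actin that rises in stressed hearts, was at 0.50 (SE 0.33, 0.294). Xirp2, an actin-binding protein of the intercalated disc, had 3727 ± 1385 CPM with anti-PD-1 against 1187 ± 245 CPM (SD, n = 3 each) and rose by 1.65 on the log2 scale (SE 0.31; by edgeR, adjusted p = 0.00811), and did so without any 1 library. Nebl, nebulette, which lines the thin filament near the Z-disc, rose by 1.07 (edgeR adjusted p = 0.0153; 0.0717 and 0.0532 when library 2 or 3 of anti-IgG was left out). Capza1, a subunit of the protein that caps the barbed end, rose by 0.81 (edgeR adjusted p = 0.0159; from 0.0538 to 0.0929 when library 2 or 3 of anti-IgG, or 1 or 3 of anti-PD-1, was left out). Tmod1, Svil and Tnni3k also rose, the last a kinase named for its binding of cardiac troponin I, with an edgeR adjusted p of 0.04996, and Tmod4 fell. The calls ended in 5 of the 6 fits with a library left out for Tmod1 and for Tnni3k, and in 3 of 6 for Svil and for Tmod4. These 4, like the actins, were named after their values were seen. With the trend on coding and 3' UTR length removed, Capza1 alone of the 27 passed, and the list's median was 0.33, against -0.64 for the 8 troponin and tropomyosin genes.

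Cardiomyocyte genes outside the thin filament went both ways. Of the 10 markers 1 rose, 2 fell and 7 did not pass, with a median of -0.47. Over all tested genes 10.3% rose and 10.8% fell, so calls in both directions are not particular to this list. Ryr2, the calcium release channel with a very long transcript, rose by 1.39 (edgeR adjusted p = 0.00644). Myl2, the regulatory light chain of ventricular myosin, had a log2 fold change of -1.87 (edgeR adjusted p = 0.0138; 0.0600 without anti-IgG library 2), and Csrp3, a muscle LIM protein, of -1.02 (0.0244; from 0.0757 to 0.0935 when library 2 or 3 of anti-IgG, or library 1 of anti-PD-1, was left out). Myh6, alpha myosin heavy chain, was at 0.04 and Ttn, titin, at -0.02, both named after their values were seen. With the trend on coding and 3' UTR length removed the median of the 10 was 0.00: Ryr2 (0.62), Myl2 (-1.11) and Csrp3 (-0.23) no longer passed, and Ttn did, at -1.04 (edgeR adjusted p = 0.0283). Of 8 fetal and stress genes, 3 of which are also on the thin filament list, 1 rose (Xirp2) and 0 fell, with a median of -0.17. Of 7 atrial markers 4 were tested and 0 passed by edgeR (2 with an unadjusted p under 0.05), with a median of -0.48.

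**Figure D5:**
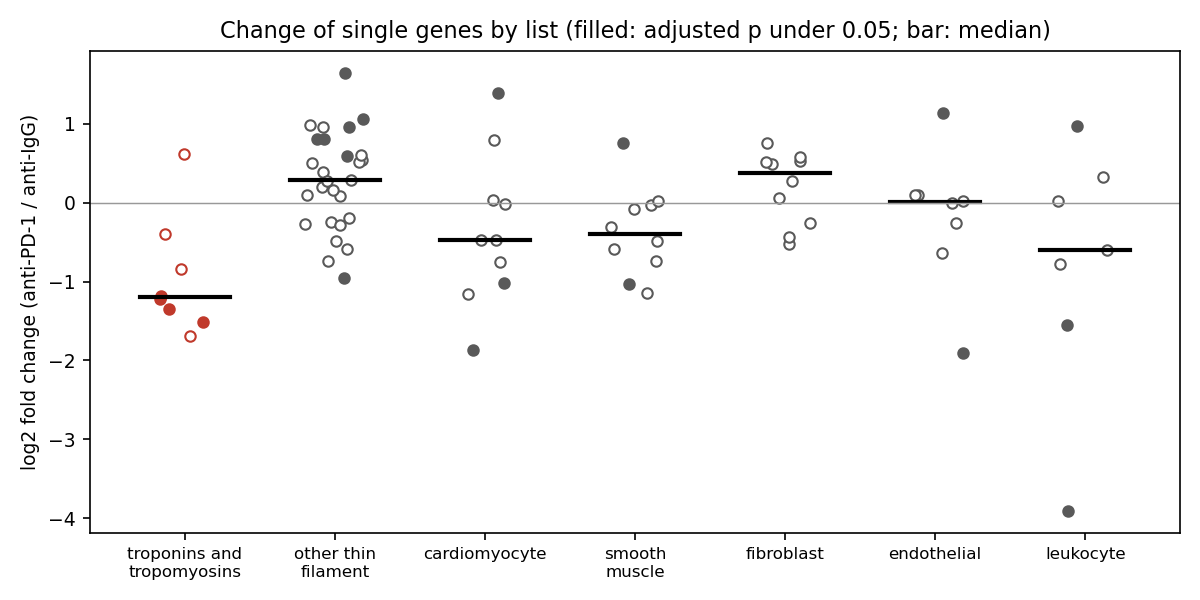
Log2 fold change of each tested gene (anti-PD-1 against anti-IgG) by list, filled where the adjusted p was under 0.05, with the list's median as a bar; the horizontal scatter has no meaning. The median of the troponin and tropomyosin genes is -1.20, that of other thin filament genes 0.29 and that of cardiomyocyte markers -0.47.

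Which genes ran most like the members over the 6 libraries was measured as the root mean square difference between deviations of log2 CPM from each gene's mean, among 4285 other genes whose mean log2 CPM was 5 or more. Closest to Tnni3 were Atp5l, a subunit of ATP synthase (0.095, against a deviation of 0.813 of Tnni3 itself), and Sod1, the cytosolic superoxide dismutase (0.122). Closest to Tnnt2 and to Tpm1 were Gstp1, a glutathione transferase (0.112 and 0.091), and Brk1, a subunit of an actin regulator (0.129 and 0.072). Pfdn5 (0.140) and Sod1 (0.145) were closest to Tnnc1, Ndufa12 (0.283) and Uqcrb (0.292) to Tnnt1, Atf4 (0.092) and Rpl30 (0.118) to Tpm2, and Plat (0.101) and 2010111I01Rik (0.151) to Tpm4. The coding and 3' UTR lengths of the genes closest to the 4 troponins and to Tpm1 were 460 to 1085 bp. The genes closest to Tpm3, Cttnbp2nl (0.088) and Lrrc8c (0.094), had lengths of 4649 and 6655 bp, those closest to Tpm2 of 1128 and 395 bp, and those closest to Tpm4 of 2415 and 3273 bp.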

How the data were processed

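The 6 libraries are of mRNA from mouse left ventricle, 3 a group. The authors deposited raw read counts per gene; per the submitters' processing notes featureCounts and mm10 were used. The aligner, the annotation and strand use are not given in the sources used here. FPKM were deposited by the authors as well, scaled by their own gene length, which covers all exons. From the counts, genes were kept by filterByExpr (14807 of 54929), scaled by TMM and compared by edgeR 4.0.16 (R 4.3.3) with the quasi-likelihood test, robust fit, 2-sided, Benjamini-Hochberg adjusted over all genes tested. Each SE was derived from the F statistic (log2 fold change over the root of F). Ratios used FPKM and an exact permutation test over libraries. On simulated counts for the 14807 genes of this comparison the fit recovered 39.0% of changes of 1 and 80.0% of changes of 2 on the log2 scale. Total counts of 18063344 to 21093163 leave genes such as Tnni1 with too few reads to test.

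The longest GENCODE M21 transcript with both gave the coding and 3' UTR length, present for 88.1% of tested genes; trends were natural splines of 5 degrees of freedom on log2 length, fitted to log2 CPM (prior count 2) and entered as offsets. Genes without such lengths were left uncorrected. DESeq2 1.42.0, limma 3.58.1 (voom, and trend on log2 FPKM), other scalings and filters and each library left out were alternatives. Genes named beyond the members were the 3 tested genes of a list with the smallest unadjusted p, and the 2 nearest patterns of each member; most of those of the fetal, atrial, fibroblast, endothelial and leukocyte lists are given as counts, with values only where an alternative turned the sign. Genes named outside this rule are marked in the text. The members, lists and tests were chosen with earlier results of these data known.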

Additional observations from a re-analysis of the deposited data

How the results depend on the processing

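Removing the trend on coding and 3' UTR length, a setting chosen after the data were seen, ended the calls of Tnnt2 (-0.63), Tnni3 (-0.54), Tnnc1 (-0.64) and Tpm1 (-1.09), left 0 of the members and 1 higher and 0 lower of the other thin filament genes, and 835 of all genes. The trend on the authors' gene length left Tnni3 at -0.94 and Tnnc1 at -0.84, 2 members lower, 0 other thin filament genes lower and 1526 of all genes. Tnnt1 passed with upper quartile scaling (-1.79), without the count filter (-1.67), by DESeq2 (-1.67) and by limma-voom (-1.83). Tpm2 passed without the count filter (-0.83) and by DESeq2 (-0.82), and so did Tpm3 (0.63 and 0.64), the 1 member higher there; in both, 2 other thin filament genes were lower. Without the count filter Tnni1 was at -1.70 (edgeR adjusted p = 0.279). Upper quartile scaling put the median of all genes at -0.12, and 36.8% of the changed genes rose, against 48.9% with TMM.

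Same-numbered libraries correlated at 0.124, -0.143 and 0.214 about their group means, and not every library correlated best with its own number. With so few libraries these correlations cannot decide whether the numbers pair the samples, and the labels do not say. With the replicate block 3367 genes passed, against 3118; Tnnt1 (-1.81), Tpm2 (-0.81) and Tpm3 (0.62) passed, with 1 member higher and 2 other thin filament genes lower. With the replicate block and the gene length trend removed Tnnt1 (-1.42), Tnni3 (-1.01) and Tnnc1 (-0.87) passed, 5 members were lower, with 0 other thin filament genes lower and 1466 of all genes. With the replicate block and the transcript length trend removed Tnnt2 (-0.68), Tnni3 (-0.58) and Tnnc1 (-0.68) did not pass, 1 member (Tpm1, -1.14) was lower, 1 other thin filament gene was higher and 0 lower, and 831 of all genes passed. Paired by number, the ratio differences were the same in size, with exact sign-flip p of 0.25 or more, the smallest possible.

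Leaving out each library in turn gave 0 to 6 members lower and 0 to 1 higher, 1 to 6 other thin filament genes higher and 0 to 2 lower, and 532 to 3646 of all genes. The ranges were -1.52 to -0.96 for Tnnt2, -1.67 to -1.08 for Tnni3, -1.83 to -1.20 for Tnnc1, -2.33 to -1.27 for Tnnt1, -1.40 to -0.93 for Tpm1, -1.11 to -0.52 for Tpm2 and 0.48 to 0.83 for Tpm3. The log2 ratio of Tnni1 to Tnni3 ran from -0.63 to 0.037 (without anti-PD-1 library 2) and turned to 0.72 with 0.1 added to both FPKM values. That of Tnnt1 to Tnnt2 turned to 0.17 with the gene length trend removed. Tpm4 passed in none of the 20 settings. Of 22 named genes of the other lists, 367 of 438 values kept direction and side of the threshold. Those that turned were Nppb (0.088 and 0.31 with the gene or transcript length trend removed, 0.028 and 0.24 with the replicate block added), Synpo2 (-0.017, transcript length) and Pdgfra (-0.13, and -0.13 with the block).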
